A study of Mus musculus with 6 samples.

Results

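The caspase family was examined here as 8 genes of a table of 54532, found by gene name: the inflammatory caspases Casp1, Casp4 and Casp12, the pore-forming gasdermin gene Gsdmd, the apoptotic initiators Casp2, Casp8 and Casp9, and the executioner Casp6. RNA came from bone marrow (BM) of C57BL/6 mice at day 100 after transplantation, in 3 libraries labelled Phf6 wild-type (WT 1 to WT 3) and 3 labelled Phf6 knockout (KO 1 to KO 3). By the study's methods, donor Lin- cells of both groups came from male mice and carried a retrovirus with JAK3 M511I, an activated Janus kinase, and GFP, to model T-cell acute lymphoblastic leukemia (T-ALL). KO donors were Vav1-Cre;Phf6 fl/y, with Cre active throughout blood cells, and WT donors were Phf6 fl/y without Cre, so deletion of Phf6 and presence of Cre cannot be told apart. Recipients were male and irradiated, and the labels do not say whether GFP+ cells were sorted before RNA extraction. Nor do they say how many mice gave each library, so p-values measure the spread between libraries. The genotype labels name Phf6, Phf7 and Phf8 in turn within each group, and all were read as Phf6, the gene that the series design names.

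Caspases are proteases that cut their substrates after aspartate and are made as inactive precursors. Apoptosis runs through initiators, which are activated on platforms such as the apoptosome (Casp9), the death-inducing signalling complex (Casp8) or the PIDDosome (Casp2), and through executioners, which take the cell apart. Inflammatory caspases are activated by inflammasomes (Casp1) or by bacterial lipopolysaccharide inside the cell (Casp4, the mouse gene also called caspase-11). They cleave gasdermin D, whose fragments form membrane pores, and Casp1 also matures interleukin-1β and interleukin-18; this lytic death is called pyroptosis and is well known in macrophages and neutrophils.

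Phf6 itself had 7.47, 3.67 and 8.02 FPKM (fragments per kilobase of gene length, scaled to library size) in WT 1, WT 2 and WT 3, and 6.73, 5.50 and 5.11 FPKM in KO 1, KO 2 and KO 3. The groups overlapped, and the value counts the whole gene although only part of it is flanked by loxP sites, so Phf6 RNA did not check the labels. Recovered depth was between 13015823 and 18235095 reads per library. WT 2 stood apart, with 17.1% of its reads in genes under 1000 bases, against 3.11% to 5.01% elsewhere, and 6.74% in genes of 8000 bases or more, against 22.9% to 26.5%. Values without WT 2 are therefore given beside the members called; without it, 4 members were lower and 2 higher, where 52.0% of all genes tested were called, 25.3% lower and 26.8% higher.

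In the KO-labelled libraries Casp1, Casp4 and Gsdmd were lower, by 5.33-fold, 15.0-fold and 2.97-fold in mean FPKM, whereas Casp2 and Casp6 were 3.19-fold and 3.35-fold higher. Casp9 and Casp8 did not pass the test, and Casp12 was close to no signal in both groups. Of the 8 members, 7 passed a filter of 1 FPKM in 3 libraries, and Casp4 did so only through the WT-labelled libraries, so it could enter the test only by being higher there. Past an adjusted p of 0.05 by limma, 3 members were lower and 2 higher, where 26.4% of the 13393 genes tested were called in either direction, 13.3% lower and 13.1% higher. The groups did not overlap for 4 members that were lower and 2 that were higher, which held for 22.9% and 26.2% of all genes tested. Earlier results for Casp1, Casp4 and Casp9 were known when the members were chosen, and the study had picked these 3 genes from the same libraries. The study also reports a follow-up measurement in GFP+ T-ALL cells, in which Caspase family genes were lower with Phf6 deleted.

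The promoters of 2 members that fell and 2 that rose are shown to give the sequence beside members called in each direction. Each runs 300 bases, from 250 before to 50 after a RefSeq start site on build GRCm38.p6, plus strand, with CpG dinucleotides in capitals. Casp1 lies at chr9:5298267-5298566, Casp4 at chr9:5308599-5308898, Casp2 at chr6:42264735-42265034 and Casp6 at chr3:129901165-129901464.
Casp1: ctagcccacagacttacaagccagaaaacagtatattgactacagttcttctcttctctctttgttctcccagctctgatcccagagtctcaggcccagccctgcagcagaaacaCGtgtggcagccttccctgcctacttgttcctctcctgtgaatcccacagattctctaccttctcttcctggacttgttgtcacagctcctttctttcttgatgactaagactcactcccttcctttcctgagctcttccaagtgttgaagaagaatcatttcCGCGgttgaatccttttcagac
Casp4: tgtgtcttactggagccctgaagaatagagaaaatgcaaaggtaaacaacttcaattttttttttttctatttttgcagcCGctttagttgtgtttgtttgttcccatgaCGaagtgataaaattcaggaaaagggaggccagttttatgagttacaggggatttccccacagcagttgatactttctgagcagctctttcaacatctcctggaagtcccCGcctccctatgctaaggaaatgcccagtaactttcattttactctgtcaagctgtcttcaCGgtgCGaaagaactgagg
Casp2: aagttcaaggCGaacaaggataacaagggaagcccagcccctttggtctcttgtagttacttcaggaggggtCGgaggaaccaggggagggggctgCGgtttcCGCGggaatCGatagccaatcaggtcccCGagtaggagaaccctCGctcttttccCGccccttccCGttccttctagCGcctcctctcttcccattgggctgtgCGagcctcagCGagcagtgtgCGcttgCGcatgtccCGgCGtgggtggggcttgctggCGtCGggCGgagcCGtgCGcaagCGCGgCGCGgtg
Casp6: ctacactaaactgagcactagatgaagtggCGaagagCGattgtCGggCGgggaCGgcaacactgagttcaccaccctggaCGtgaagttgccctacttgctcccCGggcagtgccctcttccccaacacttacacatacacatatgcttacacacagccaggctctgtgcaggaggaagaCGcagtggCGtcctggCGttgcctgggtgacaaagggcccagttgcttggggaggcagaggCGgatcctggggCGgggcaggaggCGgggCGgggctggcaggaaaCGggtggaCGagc

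Of the 8 members, 7 had a promoter in the RefSeq set. Casp4 had 2, of which only the one nearest to the deposited gene start was used. Casp1 held 3 CpG, Casp12 3 and Casp4 5, against a median of 7 over 32851 promoters. Casp2 held 26 CpG, a number reached by 16.9% of promoters, and Casp6 held 16, reached by 33.0%. CpG count did not follow direction, since Casp9, which was not called and lay lower in every KO-labelled library, held 28. Casp8, also not called, held 5, at a start 7128 bases inside the deposited gene. Motifs were searched on both strands. The GC box GGGCGG was found 2 times in Casp2, 3 times in Casp6 and 4 times in Casp9, and in 35.7% of all promoters, with no match in the Casp1, Casp4, Casp8 or Casp12 window. The E2F motif TTTCCCGC occurred 1 time, in Casp2, where it overlaps a GC box, and in 1.07% of all promoters. CCAAT matched 2 times in Casp2, 2 times in Casp12 and 1 time in Casp8 (37.4% of all promoters), while the core of the interferon-stimulated response element and the TATA box TATAAA matched in none of the 7 (3.44% and 13.6% of all promoters).

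Casp1, which matures interleukin-1β, reached 17.4, 35.3 and 22.97 FPKM in WT 1, WT 2 and WT 3. In KO 1, KO 2 and KO 3 it was 4.91, 4.29 and 5.02 FPKM. The lowest WT-labelled library stood well above the highest KO-labelled library, and the KO-labelled libraries lay within a narrow band. On the log2(FPKM + 1) scale, which understates changes of low genes, the difference was -2.14 ± 0.30 (SE, n = 3 libraries per group; limma, adjusted p = 0.00369), and -1.88 without WT 2.

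Casp4, the sensor of intracellular lipopolysaccharide, reached 6.99, 14.9 and 6.73 FPKM in the WT-labelled libraries. The KO-labelled libraries gave 0.579, 0.496 and 0.837 FPKM, from 40, 29 and 50 reads. All KO-labelled libraries were under 1 FPKM and the groups did not overlap. The difference was -2.61 ± 0.34 in log2(FPKM + 1) (SE, n = 3 per group; limma, adjusted p = 0.00269), and -2.27 without WT 2. With a pseudocount of 0.1 it was -3.63, since the KO-labelled level is close to the bottom of the scale.

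Casp1, Casp4 and Casp12 lie side by side on the plus strand of chromosome 9 (GRCm38). Casp1 (ENSMUSG00000025888) spans 5298517 to 5307265, Casp4 (ENSMUSG00000033538) starts 1562 bases after it, at 5308828, and ends at 5336783, and Casp12 (ENSMUSG00000025887) spans 5345430 to 5373032. No gene with reads other than these 3 lies within 200 kb of them. Casp12, whose role is less settled than that of its neighbours, had no read in WT 1, 6 in WT 2 and 3 in WT 3. Of the KO-labelled libraries, KO 2 held 1 read and the others none. WT 2 alone exceeded the floor of 3 reads, equal to between 0.0419 and 0.0665 FPKM in a library, so a difference was not detectable at this depth. Casp1 and Casp4 thus had clear levels in the WT-labelled libraries, beside a neighbour that was almost silent in every library. The 3 genes are related in sequence, and how the counting treated reads that fit more than 1 of them is not stated.

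Gsdmd (ENSMUSG00000022575, chromosome 15, 75862327 to 75867408), the shared substrate of Casp1 and Casp4, had 34.2, 59.2 and 29.9 FPKM in the WT-labelled libraries. In KO 1, KO 2 and KO 3 it had 13.3, 11.5 and 16.7 FPKM, all below the WT-labelled libraries. The log2 difference was -1.46 ± 0.33 (SE, n = 3 per group; limma, adjusted p = 0.0191), and -1.17 without WT 2. The ratio of Gsdmd to Casp1 in FPKM was 1.96, 1.67 and 1.30 in the WT-labelled and 2.71, 2.68 and 3.32 in the KO-labelled libraries, higher in all of the latter. The call was lost without KO 1, KO 2 or KO 3 (-1.44, -1.34 and -1.59). It was also lost on the TPM scale (-0.67), with an adjusted p of 0.178, the highest of the alternatives, where the lowest was 0.000241.

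Casp2 (ENSMUSG00000029863, chromosome 6, 42264985 to 42282508), the initiator of the PIDDosome, moved the other way. It had 8.51, 3.29 and 8.92 FPKM in the WT-labelled libraries and 20.1, 21.3 and 24.8 FPKM in the KO-labelled ones. WT 2 was the lowest of all, and every KO-labelled library was above every WT-labelled one. The log2 difference was 1.63 ± 0.37 (SE, n = 3 per group; limma, adjusted p = 0.0206), and 1.24 without WT 2 (adjusted p = 0.00121). It did not pass when KO 1 (1.70), KO 2 (1.66) or KO 3 (1.55) was left out. Across alternatives the lowest adjusted p was 9.96e-05 and the highest 0.0904.

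Casp6 (ENSMUSG00000027997, chromosome 3, 129901425 to 129914103), an executioner, had 1.65, 1.72 and 1.56 FPKM in the WT-labelled libraries. The KO-labelled libraries had 6.03, 5.37 and 5.14 FPKM. Spread within a group was small on both sides: the SD was 0.0809 and 0.461 FPKM, and WT 2 did not stand apart for this gene. The log2 difference was 1.30 ± 0.21 (SE, n = 3 per group; limma, adjusted p = 0.00561), and 1.32 without WT 2. It passed in each of the 14 alternatives in which the gene was tested.

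Casp9 (ENSMUSG00000028914, chromosome 4, 141793612 to 141815976), the apoptosome initiator, had 4.03, 3.21 and 3.50 FPKM in the WT-labelled and 2.08, 1.78 and 1.65 FPKM in the KO-labelled libraries. The groups did not overlap, as for 49.1% of all genes tested in either direction. The log2 difference of -0.69 ± 0.21 (SE, n = 3 per group) missed the threshold (limma, adjusted p = 0.0551), and passed in 5 of 14 alternatives. Leaving out WT 2 was 1 of these (-0.75, adjusted p = 0.0107), while on the TPM scale the value was -0.13, with the highest adjusted p of all, 0.854; the lowest was 0.000809.

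Casp8 (ENSMUSG00000026029, chromosome 1, 58795374 to 58847503), which starts death receptor signalling, was the one member whose groups overlapped among those tested. It had 31.4, 20.7 and 36.3 FPKM in the WT-labelled libraries and 37.0, 34.5 and 40.6 FPKM in the KO-labelled ones. The difference was 0.37 ± 0.28 (SE, n = 3 per group; limma, adjusted p = 0.390), with a 95% interval from -0.31 to 1.04 on the log2 scale, which holds both a small fall and a rise of up to that bound. Without WT 2 it was 0.14, and on the TPM scale, where the median of all genes was 0.86, it was 1.20 (adjusted p = 0.188). On that scale Casp2 was 2.51 and Casp6 2.27, both past the threshold.

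**Figure D1:**
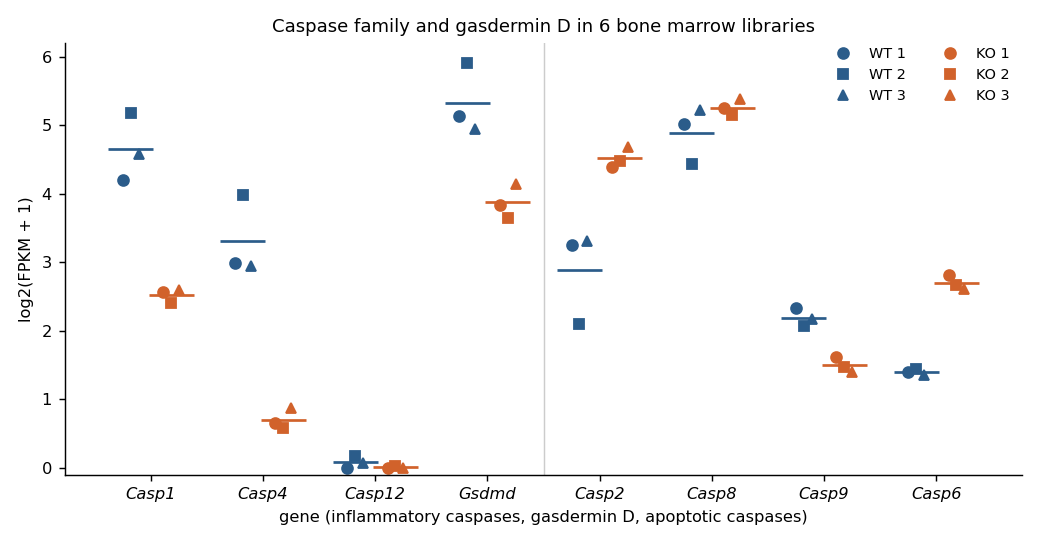
Expression of the 8 members in each library, as log2(FPKM + 1) on the vertical axis, with WT-labelled libraries in blue, KO-labelled libraries in orange and group means as lines. Casp1, Casp4 and Gsdmd sat higher in all WT-labelled libraries, Casp2 and Casp6 in all KO-labelled libraries, the Casp8 groups overlapped, and Casp12 stayed near 0.

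**Figure D2:**
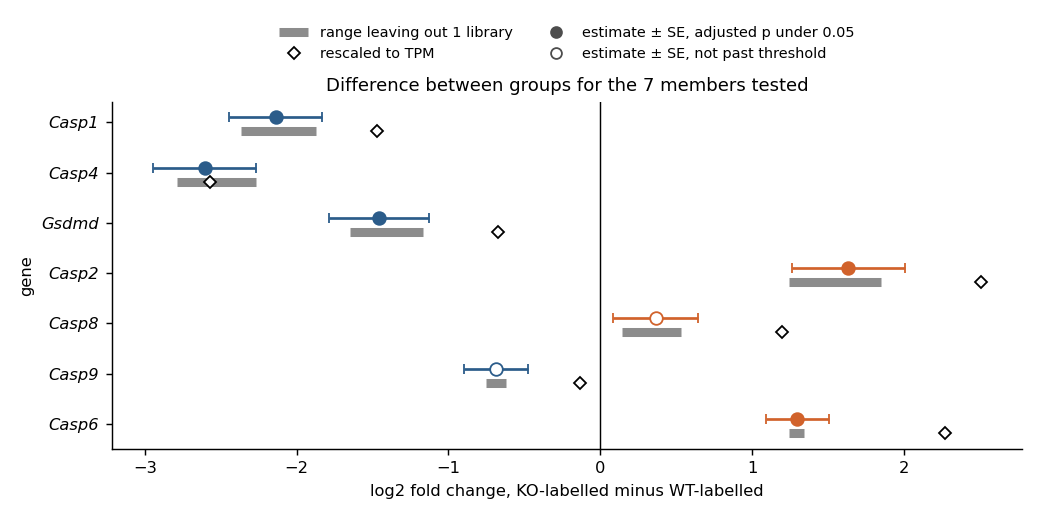
Log2 difference between groups (KO-labelled minus WT-labelled) for the 7 members tested, with circles for the estimate ± SE, grey bars for the range over fits that left out 1 library, and diamonds for values rescaled to TPM. Every member kept its side of 0 in all of these fits, and diamonds lay to the right of the circles, by the least for Casp4.

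The order of the levels changed between the groups. In WT-labelled libraries Gsdmd had the highest mean, 41.1 FPKM, followed by Casp8 at 29.5 and Casp1 at 25.3 FPKM, and the ranges of Gsdmd and Casp8, and of Casp8 and Casp1, overlapped. Casp4, Casp2 and Casp9 came next, with means of 9.53, 6.91 and 3.58 FPKM and overlapping ranges between neighbours, above Casp6 at 1.64 FPKM. In KO-labelled libraries the order was Casp8 (37.4 FPKM), Casp2 (22.1), Gsdmd (13.8), Casp6 (5.51), Casp1 (4.74), Casp9 (1.84) and Casp4 (0.637), and no 2 neighbours in this order had overlapping ranges. Casp6 thus stood below Casp1 in every WT-labelled library, and its FPKM was above that of Casp1 in every KO-labelled one. In KO 3 the gap was small, at 5.14 against 5.02 FPKM with 121 Casp1 reads, so the order there is not settled.

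The contrast of inflammatory with apoptotic caspases was also taken within each library, where the scaling of that library has no part in a share. Of the summed FPKM of the 7 caspases, Casp1, Casp4 and Casp12 together held 34.9%, 63.5% and 37.2% in WT 1, WT 2 and WT 3. In KO 1, KO 2 and KO 3 they held 7.77%, 7.08% and 7.50%. The KO-labelled libraries were thus close to each other, and WT 2 stood above the other WT-labelled libraries. Gene lengths were 1497 bases for Casp1, 3710 for Casp4 and 3840 for Casp12. They were 7057 for Casp2, 5584 for Casp6, 5197 for Casp9 and 2893 for Casp8. WT 2 had a smaller portion of its reads in long genes, and whether this entered its shares was not tested. The sum itself was 76.4 ± 5.57 FPKM in the WT-labelled and 72.2 ± 5.34 FPKM in the KO-labelled ones (SD, n = 3 each). Casp2 went from 9.15% ± 4.36 to 30.5% ± 1.84 and Casp6 from 2.16% ± 0.202 to 7.68% ± 0.998 (SD, n = 3 each). Casp8 held 44.8%, 26.1% and 45.3% in the WT-labelled and 52.3%, 51.0% and 52.0% in the KO-labelled libraries, the largest share in each library but WT 2. Mean log2(FPKM + 1) of the 3 inflammatory minus that of the 4 apoptotic caspases was -0.60, 0.60 and -0.48 in the WT-labelled libraries and -2.45, -2.44 and -2.37 in the KO-labelled ones. These values are descriptions, since the members were chosen with results known, and no test was made of them. Apoptotic caspases did not move together: the ratio of Casp2 to Casp9 in FPKM was 2.11, 1.03 and 2.55 in the WT-labelled and 9.67, 11.9 and 15.0 in the KO-labelled libraries.

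**Figure D3:**
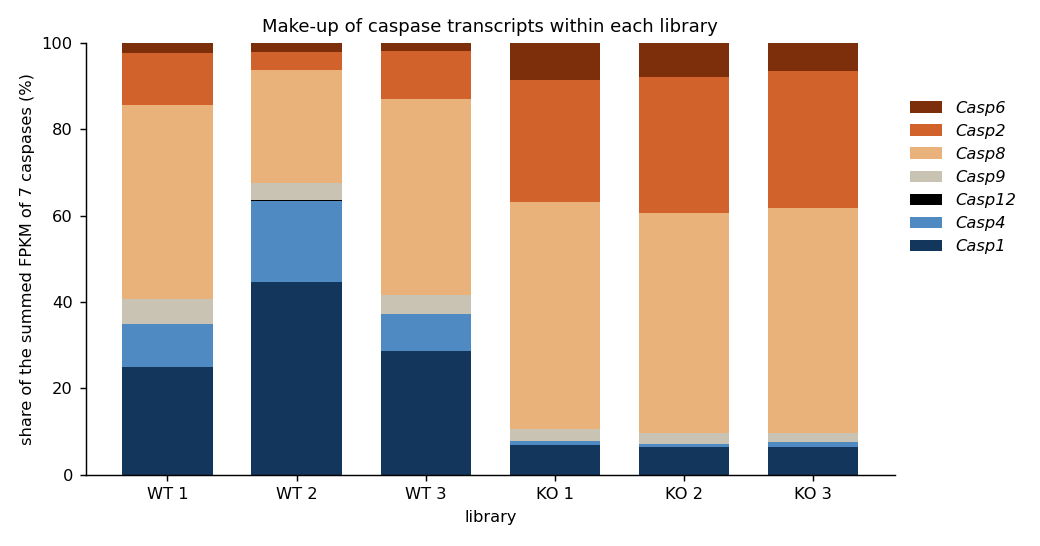
Share of each of 7 caspases in their summed FPKM (vertical axis, percent) in each library. Blue and black segments (Casp1, Casp4, Casp12) take 34.9% to 63.5% of the WT-labelled libraries and 7.08% to 7.77% of the KO-labelled libraries, and the orange Casp2 segment is wider in all KO-labelled libraries.

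Partners of the caspases were taken from 10 lists with 74 genes, of which 58 could be tested. Of these, 5 were higher and 11 lower past the threshold, which is 16 of 58 genes and near the 26.4% called over all genes, and the median log2 difference was -0.19, beside 0.086 over all genes tested. Without WT 2, 14 were higher and 21 lower, where 52.0% of all genes were called, 26.8% higher and 25.3% lower. With all 6 libraries these shares were 13.1% and 13.3%, and the counts of each list below stand beside them.

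Inflammasome genes form the platforms that activate Casp1. Of 10 tested, 5 were lower and 0 higher (limma at the threshold above), with a median log2 difference of -1.41. Over all genes tested, 13.3% were lower and 13.1% higher. Of the 10, 4 entered the test only through the WT-labelled libraries. All 4 are among the 5 lower, Aim2, Nlrc4 and Nlrp3 with them, so the filter fixed their direction. Naip2 is the other lower gene. Without WT 2, 6 were lower and 3 higher, where 25.3% and 26.8% of all genes were. Aim2, a sensor of DNA in the cytosol, had 17.0, 12.6 and 21.5 FPKM in the WT-labelled and 0.460, 0.472 and 0.674 FPKM in the KO-labelled libraries, a log2 difference of -3.53 (limma, adjusted p = 0.000445). Naip2, which detects bacterial secretion systems, and Nlrc4, the sensor it activates, had differences of -2.18 and -1.21 (limma, adjusted p = 0.00248 and 0.00355). Their relatives Naip5 and Naip6, named after their values were seen, lay the other way without overlap, at 0.76 and 1.24 (limma, adjusted p = 0.0539 and 0.0886), and both passed as higher without WT 2 (0.73 and 0.77). Nlrp3, a sensor of membrane damage, had -2.80 (limma, adjusted p = 0.0111) and lost the threshold without KO 1 and without KO 2, at -2.73 and -2.71. Pycard, the adaptor that joins sensors to Casp1, had 4.55, 38.5 and 4.28 FPKM in the WT-labelled and 7.80, 7.35 and 10.2 FPKM in the KO-labelled libraries. WT 2 alone was above the KO-labelled libraries for this gene, and the difference was -0.16 (limma, adjusted p = 0.902). Without WT 2 it was 0.79 and passed as higher (limma, adjusted p = 0.0126), as it did with array weights, and on the TPM scale it was 0.69.

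Substrates and pore genes of the inflammatory route were mostly too low to test, with 3 of 10 passing the filter, 2 of them lower and 0 higher. Il1b, the cytokine precursor that Casp1 cleaves, had 205, 157 and 19.2 FPKM in the WT-labelled libraries and 0.282, 0.533 and 1.53 FPKM in the KO-labelled ones (log2 difference -5.67; limma, adjusted p = 0.00509). Ninj1, which drives membrane rupture after gasdermin pores form, had -2.81 (limma, adjusted p = 0.0411), and lost the threshold without WT 1, KO 1, KO 2 or KO 3, at -3.09 to -2.68, as well as with voom and with no filter. Il18 had 0.754, 5.03 and 0.688 FPKM in the WT-labelled and 0.260, 0.185 and 0.482 FPKM in the KO-labelled libraries and was not tested. Neither was Gsdme, another gasdermin gene, at 2.66, 1.76 and 0.825 FPKM against 0.0885, 0.0399 and 0.117 FPKM.

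Guanylate-binding proteins open bacterial membranes and so expose lipopolysaccharide to Casp4. All 8 could be tested, and 4 were higher and 0 lower (limma), where 13.1% of all genes tested were higher. The median log2 difference was 1.09, or 1.96 after rescaling to TPM, where the median of all genes was 0.86. Gbp6 had 1.23 ± 0.577 and 7.47 ± 3.89 FPKM in the WT-labelled and KO-labelled libraries (SD, n = 3 each), a difference of 1.86 (limma, adjusted p = 0.0142). Gbp8 had 1.63 and Gbp3 1.19 (limma, adjusted p = 0.0210 and 0.0296). Gbp3 lost the threshold in 5 of the 6 fits that left out a library, all but that without WT 2 (0.95 to 1.37), and Gbp8 in 3, without WT 1, KO 1 or KO 3 (1.44 to 1.64). Gbp9, the other gene called, lost it without WT 1, KO 1, KO 2 or KO 3 (1.91 to 2.18) and in 5 other alternatives. Genes of this family are close copies of each other, so reads may be split between them in ways the values do not show. Without WT 2, 5 were higher and 1, Gbp5, was lower (-0.85), where 26.8% and 25.3% of all genes were.

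Partners of the apoptotic caspases were taken by complex. Pidd1, the scaffold on which Casp2 is activated, had 4.34, 4.62 and 3.99 FPKM in the WT-labelled libraries and 11.2, 12.2 and 17.3 FPKM in the KO-labelled ones, a log2 difference of 1.43 (limma, adjusted p = 0.00793) that passed in all 15 alternatives. Cradd, the adaptor of the same complex, had -0.37 (limma, adjusted p = 0.360). Casp2 and Pidd1 were thus both higher and Cradd was not called.

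Of 6 apoptosome and mitochondrial genes 0 passed (limma; median -0.18). At an unadjusted p under 0.05 (limma) there was 1, where 5018 of the 13393 genes tested were under it. This was Endog, a mitochondrial nuclease named after its value was seen, at -1.35 with an adjusted p of 0.0516. Apaf1, the apoptosome scaffold, had -0.019, and Cycs, cytochrome c, had -0.33. With array weights 2 were higher and 3 lower, where 32.8% and 30.4% of all genes tested were. Without WT 2, 1 was higher and 1 lower, where 26.8% and 25.3% of all genes tested were. Casp14, a caspase of skin, had no reads.

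Of 5 inhibitor of apoptosis genes, Birc3 was lower at -1.26 (limma, adjusted p = 0.00967), and lost the threshold without KO 2, without KO 3 (-1.25 and -1.24) and after rescaling to TPM (-0.53, adjusted p = 0.498, the highest of a range from 2.08e-05). Xiap, which binds Casp9 and the executioners, had 0.31, and Birc5, better known for its part in cell division, had 1.26 (limma, adjusted p = 0.717 and 0.306). Without WT 2, Xiap was -0.31 and did not pass, and Birc5 was 2.17 and passed as higher (limma, adjusted p = 0.101 and 0.00530). Of 7 genes of the death-inducing complex and necroptosis, 1 was lower: Mlkl, the pore-former of necroptosis, at -2.00 (limma, adjusted p = 0.00608), which entered the test only through the WT-labelled libraries. Fadd, the adaptor of Casp8, had -0.12, and Cflar, its inhibitor, had -0.45 (limma, adjusted p = 0.751 and 0.433). Without WT 2, Cflar was -0.84 and passed as lower (limma, adjusted p = 0.00997). In that fit 4 of the 7 genes were lower, where 25.3% of all genes tested were. On the TPM scale Cflar was 0.31 and Fadd 0.58. Of 10 substrates of apoptotic caspases, 1 was lower, Lmna, a nuclear lamin, at -3.20 (limma, adjusted p = 0.00512), and Bid, which Casp8 cuts, had 0.35 (limma, adjusted p = 0.432). Without WT 2, 1 of these was higher and 3 lower, where 26.8% and 25.3% of all genes tested were. Of 4 serpin genes tested, Serpinb1a, an inhibitor of neutrophil proteases, was lower at -5.07 (limma, adjusted p = 0.00253). Without WT 2, 3 of the 4 were lower, where 25.3% of all genes tested were. Serpinb9 was then at -2.66 and Serpinb6b at -1.90, both named after their values were seen (limma, adjusted p = 0.000208 and 0.000291).

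**Figure D4:**
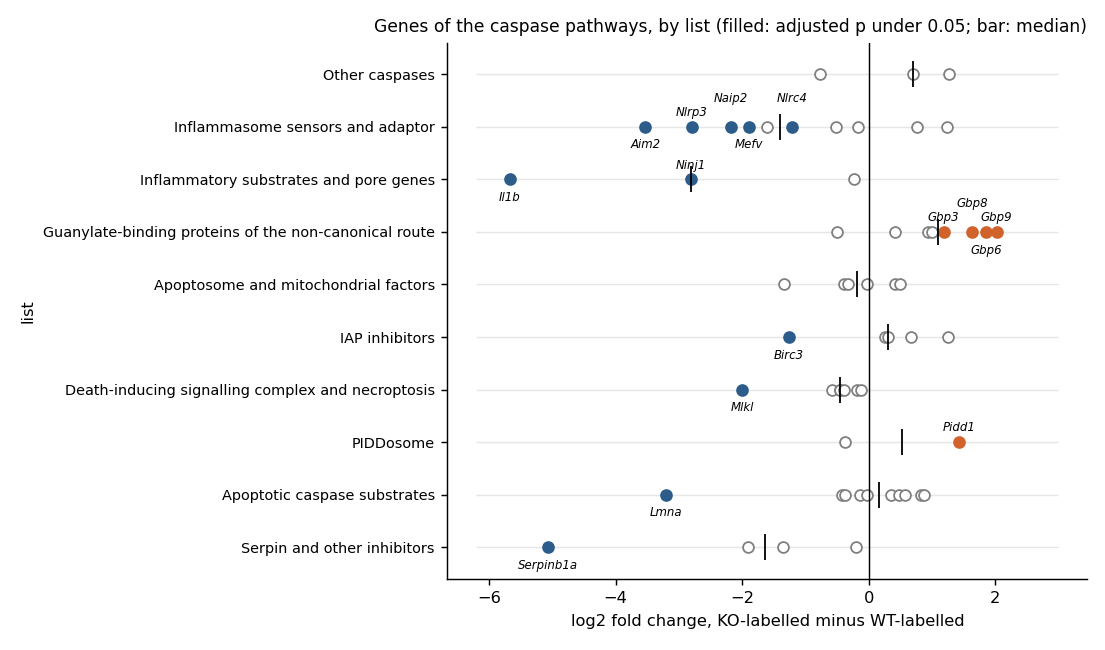
Log2 difference between groups (KO-labelled minus WT-labelled) for the 58 genes tested of the 10 lists, 1 point per gene, filled and named where the adjusted p was under 0.05, with a bar at the list median. The lowest medians are those of inflammatory substrates (-2.81), serpins (-1.63) and inflammasome genes (-1.41), the highest is that of guanylate-binding proteins (1.09), and from apoptosome genes to apoptotic substrates the medians lie between -0.45 and 0.53.

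Marker genes of BM cell types were also read in each library. In bulk RNA, fewer cells of a type and less RNA per cell cannot be told apart. All 13 neutrophil markers were lower in the KO-labelled libraries (limma), beside 13.3% of all genes tested. Their summed level was 6928 to 95626 FPKM in the WT-labelled and 94.4 to 293 FPKM in the KO-labelled libraries, and none was at 0. Of the 13, 2 entered the test only through the WT-labelled libraries, so the filter fixed their direction. Of 12 monocyte and macrophage markers, 9 were tested and 6 were lower, with sums of 336 to 4813 and 10.7 to 23.5 FPKM. Of the 9, 4 entered the test only through the WT-labelled libraries. All 4 are among the 6 lower, so the filter fixed their direction, and Lyz2 and Ccr2 are the other lower genes. Csf1r, the receptor that defines these cells, is among the 4 and was between 0.102 and 0.247 FPKM in the KO-labelled libraries. The sum of 10 T cell markers was 787 to 1700 FPKM in the WT-labelled and 921 to 1070 FPKM in the KO-labelled libraries, and 1 of the 10, Cd5, was lower. Of 6 genes listed as NK cell markers, 5 were tested, 4 were lower and 1, Gzma, was higher. The 4 were under 1 FPKM in every KO-labelled library, and Klra8 was at 0 in each. These 4 entered the test only through the WT-labelled libraries, so the filter fixed their direction. Whether the genes of this list changed in NK cells or in T cells was not tested. No B cell or erythroid marker passed. Of 7 B cell markers 3 were tested, all 3 only through the WT-labelled libraries, and of 7 erythroid markers 6 were tested. Both lists were highest in WT 2, at 1033 and 68040 FPKM, against at most 17.2 and 525 FPKM elsewhere. The B cell sum was also higher in WT 1 and WT 3, at 11.3 and 17.2 FPKM, than in the KO-labelled libraries, at 1.01 to 1.34 FPKM. From WT 1 to WT 3 the neutrophil sum went from 34133 to 6928 FPKM and the monocyte sum from 1861 to 336 FPKM. Casp1 went from 17.4 to 22.97, Casp4 from 6.99 to 6.73 and Gsdmd from 34.2 to 29.9 FPKM. In FPKM each of these was highest in WT 2, whose library size used by the authors was 0.645 of its recovered reads. Casp1 had 622 of 18235095 recovered reads in WT 2 and 533 of 14639339 in WT 3. Its order between WT 2 and WT 3 thus depends on the library size used. Whether the cells of these lists had a part in the fall of Casp1, Casp4 and Gsdmd was not tested.

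**Figure D5:**
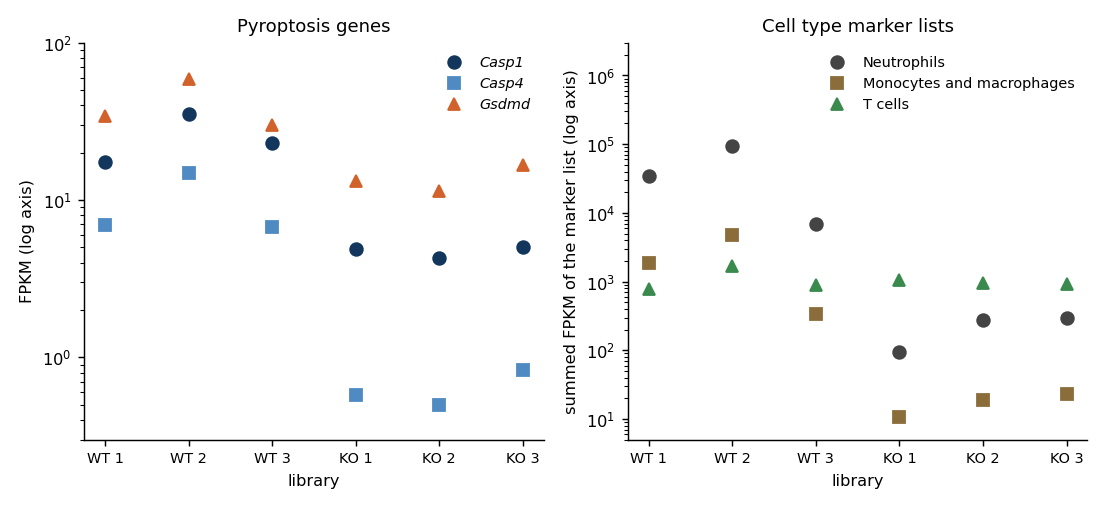
Levels of Casp1, Casp4 and Gsdmd (left, FPKM on a log axis) and summed FPKM of marker lists (right, log axis) in each library. The 3 genes and the neutrophil and monocyte sums are lower in every KO-labelled library, and the T cell sum overlaps between groups.

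Genes with patterns most like those of the members were found by distance on log2(FPKM + 1), centred over the 6 libraries. For Casp1 they were Siah2, Traf5 and Fam210b, at distances of 0.23, 0.25 and 0.28. For Casp4 they were Dnajb2, Vat1 and Tnfsf14, at 0.32, 0.35 and 0.36. For Casp8 they were Ipo9, Pex3 and Dvl2, at 0.13, 0.13 and 0.15.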

How the data were processed

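RNA of 6 BM samples was sequenced as paired ends on a NovaSeq from NEBNext libraries. The submitters' processing notes name HISAT2 2.0.5, featureCounts 1.5.0-p3 and GRCm38 (mm10); the annotation release and use of strand are not given in the sources used here. The deposited values are FPKM per gene, beside each gene's length and position from the authors' annotation. The study itself tested counts with DESeq2, which was not run here. FPKM multiplied by length gave whole multiples of 1 read (tolerance 0.01) for 100% of values above 0. Library sizes used by the authors were 0.645 of the recovered total in WT 2 and 1.01 to 1.21 of it in the other libraries. The floor of 3 reads covers counting error only, and 95% intervals come from limma, over libraries.

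Genes with at least 1 FPKM in at least 3 libraries were tested on log2(FPKM + 1) with limma 3.58.1 (lmFit, eBayes with trend, two-sided; R 4.3.3, with the data.table package, version 1.17.8), Benjamini-Hochberg adjusted over 13393 genes, threshold 0.05. An exact permutation test of 3 against 3 cannot go below 0.1. Members and lists were chosen with earlier results of these data known. Named genes are the members, fixed partners, up to 3 called genes per list, set markers, and the 3 protein-coding genes nearest to Casp1, Casp4 and Casp8; any other is named as chosen later or to complete a count. Card16 was not in the table, and some genes of the lists are counted but not reported here by name. Alternatives were other pseudocounts, filters, scalings, array weights, a replicate block, voom on recovered reads, and leaving out each library. Promoters came from the RefSeq set for GRCm38.p6. The model was tested on simulated data. Tables and figures used Python 3.11.15, pandas 2.3.3, NumPy 2.4.6 and Matplotlib 3.10.9.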

Additional observations from a re-analysis of the deposited data

How the results depend on the processing

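Every member tested kept its direction in each alternative run, 15 for most and 14 for Casp6 and Casp9, and Casp1, Casp4 and Casp6 also kept their side of the threshold. Casp9 passed with median-of-ratios scaling (-0.72), array weights (-0.82), voom on recovered reads (-0.96) and removal of a trend on gene length (-0.78, an alternative chosen after seeing the data). Gsdmd did not pass after rescaling to TPM (-0.67) or with the replicate block (-1.46); TPM moved the median of all genes from 0.086 to 0.86 and raised the portion of called genes that were higher from 49.6% to 67.8%. TPM divides each library by its summed FPKM, which was 897352 in WT 2 and between 244936 and 329893 in the other libraries. A smaller library size and more reads in short genes each raise a sum of FPKM by its formula. In WT 2 the size used by the authors was 0.645 of the recovered reads, and 17.1% of reads lay in genes under 1000 bases. The part of each in the sum was not tested. Leaving out 1 library gave 1.24 to 1.85 for Casp2, -1.65 to -1.17 for Gsdmd, -0.75 to -0.62 for Casp9, 1934 to 6967 genes past the threshold, 1 to 2 members higher, and 2 to 14 partner genes higher and 7 to 21 lower. A mean FPKM of at least 5 gave 1837 genes, 1 member higher (Casp6 was not tested) and 3 partner genes higher. Array weights gave 8461 genes, 32.8% of those tested higher and 30.4% lower, with 16 partner genes higher and 26 lower. TPM gave 8 partner genes higher, where 17.0% of all genes tested were. Same-numbered libraries did not deviate together (correlations of 0.095, 0.10 and -0.15), so the replicate block, which gave 2676 genes past the threshold in place of 3539, is not a paired design. Casp12 was under the filter; with no filter its adjusted p was 0.379. The replicate block also lost the calls of Ninj1 and Gbp3.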
